A study of Mus musculus with 8 samples.

Results

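The genes described here are 33 genes of sterol synthesis, of its control by the sterol regulatory element binding proteins (SREBPs) and of the liver X receptor (LXR) response, measured in the mouse heart after fasting. They were taken by name: 18 enzymes of cholesterol synthesis, 5 SREBP factors and regulators, the sterol carrier Stard4, 4 lipogenic genes known as SREBP-1 targets, 3 LXR targets and the 2 LXR receptors. All 33 had a probe that passed the filter on dim signal, out of 20203 genes and unnamed probes tested. The fasted group was 4 heart samples from male C57BL/6J mice, 9 weeks old, deprived of food for 2 days with free access to water. The satiated group was 4 heart samples from males of the same inbred strain and age on the CE-2 pellet diet. RNA of each sample was hybridised to 1 one-colour Agilent array. The samples are called hearts below, though the labels do not say that each came from a separate mouse.

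Cells make cholesterol from acetyl-CoA through the mevalonate pathway, squalene and lanosterol. When sterols in the endoplasmic reticulum are low, the escort protein Scap carries the SREBPs to the Golgi, where they are cut and released to activate genes of sterol synthesis (mainly SREBP-2) and fatty acid synthesis (mainly SREBP-1), whereas the Insig proteins hold Scap back when sterols are high. The LXRs are nuclear receptors for oxysterols and activate genes of cholesterol export and of low-density lipoprotein receptor degradation.

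The sequences just upstream of transcription starts were searched for letters linked to this control, on both strands, in RefSeq windows of assembly GRCm38.p6 running from 250 bases before to 50 bases after each annotated start. The table held windows for 26 of the 33 genes. The sterol regulatory element TCACNCCAC was found in 1 of the 26, Hmgcs1, beginning 137 bases before the start. It was found in 1.44% of all 27025 genes with a window and in 1.5% of the tested genes with a window. The CCAAT box, CCAAT, was found in 21 of the 26 genes (80.8%), in 14 of 15 enzymes with a window (93.3%) and in 42.3% of the tested genes with a window. The GC box, GGGCGG, was found in 22 of the 26 (84.6%) and in 64.5% of tested genes. The E-box, CACGTG, was found in 6 of the 26 (23.1%) and in 11.3% of tested genes. No window of the 26 held 2 copies of AGGTCA spaced by 4 bases, an LXR element, and no tested gene's window did. The windows printed are those of Hmgcs1, which alone held the sterol element, and, among enzymes and LXR targets with 1 window, of the 2 enzymes and of the LXR target with the smallest p. Capitals mark the sterol element and CCAAT boxes, which read ATTGG where they lie on the other strand and did not overlap the sterol element.
Hmgcs1, chr13:119690101-119690400, plus strand: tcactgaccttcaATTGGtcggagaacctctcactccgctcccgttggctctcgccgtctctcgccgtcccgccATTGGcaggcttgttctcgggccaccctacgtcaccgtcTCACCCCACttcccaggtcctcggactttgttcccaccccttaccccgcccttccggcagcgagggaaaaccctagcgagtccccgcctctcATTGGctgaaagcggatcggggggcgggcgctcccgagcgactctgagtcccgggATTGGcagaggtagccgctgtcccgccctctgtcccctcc
Cyp51, chr5:4104648-4104947, minus strand: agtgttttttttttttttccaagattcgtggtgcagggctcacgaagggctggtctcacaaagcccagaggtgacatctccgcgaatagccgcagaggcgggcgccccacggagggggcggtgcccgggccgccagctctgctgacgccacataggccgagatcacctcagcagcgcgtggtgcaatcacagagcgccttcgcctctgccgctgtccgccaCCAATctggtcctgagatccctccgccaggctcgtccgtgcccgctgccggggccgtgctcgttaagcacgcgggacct
Idi1, chr13:8885356-8885655, plus strand: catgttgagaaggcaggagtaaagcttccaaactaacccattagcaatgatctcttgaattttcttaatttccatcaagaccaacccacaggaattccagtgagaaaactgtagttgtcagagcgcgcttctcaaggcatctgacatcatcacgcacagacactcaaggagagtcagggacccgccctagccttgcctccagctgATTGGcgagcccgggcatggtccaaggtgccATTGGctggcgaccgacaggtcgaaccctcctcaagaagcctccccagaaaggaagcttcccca
Mylip, chr13:45389492-45389791, plus strand: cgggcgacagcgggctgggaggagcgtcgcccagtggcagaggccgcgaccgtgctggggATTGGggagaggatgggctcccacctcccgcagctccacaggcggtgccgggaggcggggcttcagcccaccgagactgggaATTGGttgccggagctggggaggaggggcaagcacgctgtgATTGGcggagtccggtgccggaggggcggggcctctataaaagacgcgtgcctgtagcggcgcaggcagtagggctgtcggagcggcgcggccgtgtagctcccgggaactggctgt
A match describes these letters only, and no binding was measured.

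Signals are given relative to the 75th percentile of each array, which is set to 1, and a log2 fold change is fasted minus satiated. Probes differ in brightness, so levels are compared between hearts and not between genes. Replicates 1 and 2 of both groups lay on slide 1, and replicates 3 and 4 of both on slide 2. Negative control spots had median signals of 28.5 to 30 on slide 1 and of 136 to 150 on slide 2, and 54.4% to 68.9% of probes per array were well above background. Of 9 cardiomyocyte markers, all were well above background on all 8 arrays, and their summed signal was 2197 to 3022 in fasted and 2317 to 3019 in satiated hearts. Of these markers Actc1, cardiac actin, fell (-1.64, limma adjusted p = 0.000355, no overlap), and 8 did not pass. In whole tissue, fewer cells of a type and less RNA per cell cannot be told apart.

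Across the 33 genes, 8 fell and 2 rose in fasted hearts, and 23 did not pass the test (limma, Benjamini-Hochberg adjusted p under 0.05 over all genes tested). Over all genes tested, 10.3% were called lower and 9.82% higher. Those that fell were 7 enzymes of sterol synthesis and Insig2, and those that rose were the LXR targets Abcg1 and Mylip. The groups did not overlap, with every fasted heart below every satiated heart, in 11 of the 33 genes, against 14.3% of all tested, and with every fasted heart above in 3, against 13.3%. With the slide as a block, 13 were lower and 5 higher, where 18.4% and 17.1% of all tested were called. With the replicate number as a block, 10 were lower and 5 higher, where 16.7% and 15.4% were called. The 8 lower calls became 5 without fasted replicate 1 or without satiated replicate 2, 3 or 4, where 2 remained higher in each case.

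**Figure D1:**
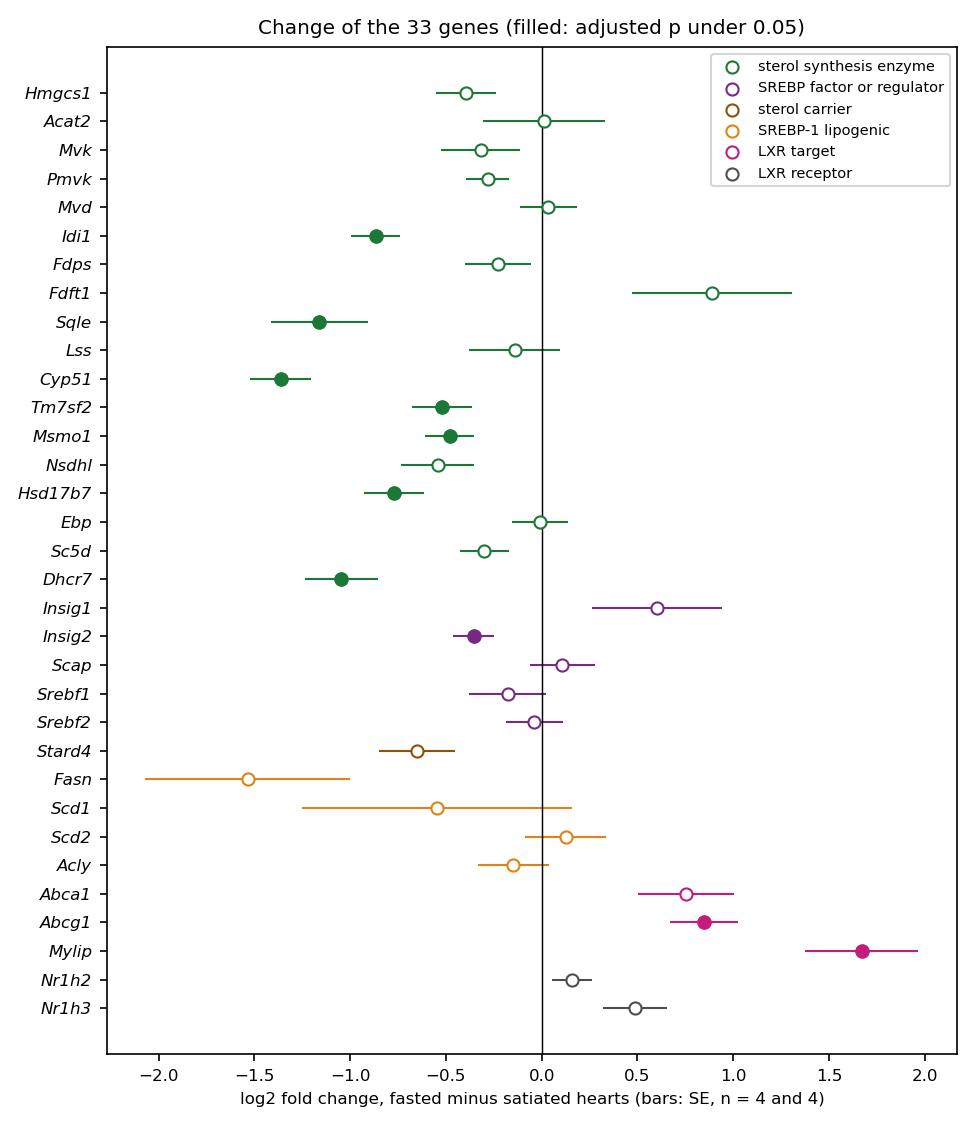
Log2 fold change of each of the 33 genes, fasted minus satiated, with its standard error (n = 4 and 4 hearts), in the order of the pathway and coloured by role. Filled points passed at adjusted p under 0.05: 7 enzymes and Insig2 lie left of 0, and Abcg1 and Mylip lie right of it.

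Of the 18 enzymes of sterol synthesis, 7 fell, none rose and 11 did not pass. Their median log2 fold change was -0.36, against -0.0042 over all genes tested, and 15 of the 18 had a negative value. Where a probe had to be well above background on all 8 arrays, Sqle left the test and 6 enzymes fell. Slide 1 taken alone gave an enzyme median of -0.27, and slide 2 gave -0.48. The mean log2 deviation of the 18 enzymes from their 8-heart means was -0.24, -0.18, -0.26 and -0.15 in the 4 fasted hearts and 0.095, 0.17, 0.24 and 0.32 in the 4 satiated hearts.

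By the brightest probe of each gene, the largest fall among the enzymes was in Cyp51, the lanosterol 14-alpha-demethylase that begins the conversion of lanosterol. Its signal was 0.119, 0.145, 0.113 and 0.115 in fasted hearts, against 0.308, 0.384, 0.253 and 0.325 in satiated hearts, with no overlap. The log2 fold change was -1.36 (SE 0.16, limma adjusted p = 0.00129), and the satiated level was 2.57 times the fasted one. The other 2 Cyp51 probes gave -0.19 (SE 0.55, limma adjusted p = 0.85) and -0.45 (SE 0.14, limma adjusted p = 0.059), so the probes disagree in size. With normexp background correction the value was -0.84, and with the mean of the 3 probes -0.67 (limma adjusted p = 0.00252 and 0.0453). Cyp51 did not rank first in either setting. Dhcr7 gave -0.93 with normexp correction, and Sqle gave -1.16 with the mean of kept probes.

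Sqle encodes squalene epoxidase, the first oxygen-requiring step. Its signal was 0.0956, 0.0774, 0.0426 and 0.0845 in fasted hearts, against 0.136, 0.191, 0.157 and 0.164 in satiated hearts. The groups did not overlap, and the log2 fold change was -1.16 (SE 0.25, limma adjusted p = 0.0156). With normexp background correction it was -0.39 (limma adjusted p = 0.0385). The single Sqle probe was well above background on 3 of 4 fasted and 4 of 4 satiated arrays. The satiated group alone met the filter on dim signal, so the Sqle fold change and call are to be read with that limit.

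Dhcr7 encodes 7-dehydrocholesterol reductase, which makes cholesterol from its last precursor. Its signal was 1.03, 1.07, 0.636 and 1.11 in fasted hearts, against 1.78, 2.07, 1.82 and 2.11 in satiated hearts. Every fasted heart was lower, by -1.05 on the log2 scale (SE 0.19, limma adjusted p = 0.00813). A second, dimmer Dhcr7 probe gave -0.63 (SE 0.40, limma adjusted p = 0.31). With the mean of both probes the value was -0.84, and the call was lost (limma adjusted p = 0.0631).

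Idi1 encodes the isomerase that turns isopentenyl into dimethylallyl diphosphate. Its signal was 0.716, 0.741, 0.602 and 0.674 in fasted hearts, against 1.09, 1.36, 1.35 and 1.19 in satiated hearts. The groups were well separated, with a log2 fold change of -0.87 (SE 0.13, limma adjusted p = 0.00333).

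Hsd17b7 encodes the 3-ketosteroid reductase of C4 demethylation. Its signal was 0.517, 0.496, 0.700 and 0.628 in fasted hearts, against 0.900, 0.980, 0.915 and 1.18 in satiated hearts. It fell by 0.77 on the log2 scale (SE 0.16, limma adjusted p = 0.0119), without overlap, and its second probe was also called lower (-0.62, limma adjusted p = 0.0327).

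Msmo1, the C4-methyl sterol oxidase of the same step, had signals of 1.98, 2.05, 1.69 and 2.27 in fasted hearts, against 2.50, 2.79, 3.05 and 2.76 in satiated hearts. It fell by 0.48 (log2, SE 0.13, limma adjusted p = 0.0334), again without overlap, and stayed called in 3 of the 8 fits that each left out 1 heart. Tm7sf2, a sterol C14 reductase, had signals of 0.816, 0.833, 0.805 and 0.590 in fasted hearts, against 1.28, 1.09, 1.03 and 0.959 in satiated hearts. Its log2 fold change was -0.52 (SE 0.16, limma adjusted p = 0.0493), close to the threshold. In limma the Tm7sf2 call was lost whichever heart was left out (adjusted p 0.063 to 0.118), and also with the array percentile taken over unflagged spots (limma adjusted p = 0.053) or over all spots (limma adjusted p = 0.0517) in place of probes.

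The enzymes that did not pass gave mostly smaller values. Nsdhl, the decarboxylating dehydrogenase of C4 demethylation, gave -0.54 (SE 0.19, limma adjusted p = 0.0806), and fasted replicate 2 lay above satiated replicate 3. It passed with the slide block (limma adjusted p = 0.00533) and with the replicate block (limma adjusted p = 0.0139). Of the 8 fits that each left out 1 heart, Nsdhl passed in 1, without fasted replicate 2 (limma adjusted p = 0.0458, against up to 0.19). Its other 2 probes were called lower (-0.84 and -0.63, limma adjusted p = 0.0141 and 0.0308). Hmgcs1, the cytosolic synthase that makes the precursor of mevalonate, had signals of 4.84, 4.71, 3.46 and 5.21 in fasted hearts, against 5.38, 6.12, 5.63 and 6.60 in satiated hearts. Every fasted heart was lower, but the log2 fold change of -0.39 (95% interval -0.75 to -0.04) was not called. Pmvk (phosphomevalonate kinase), Sc5d (lathosterol oxidase), Mvk (mevalonate kinase) and Fdps (farnesyl diphosphate synthase) gave -0.28, -0.30, -0.32 and -0.23 on the log2 scale, and Pmvk and Sc5d passed only with the slide block. A second Mvk probe, well above background on all 8 arrays, was called lower (-0.53, limma adjusted p = 0.0433). Lss, Ebp, Mvd and Acat2 gave -0.14, -0.0072, 0.034 and 0.011, with 95% intervals that reached at most 0.74 from 0.

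Fdft1, squalene synthase, ran against the other enzymes. Its signal was 2.27, 2.24, 6.26 and 4.31 in fasted hearts, against 1.36, 1.20, 2.79 and 2.58 in satiated hearts. The groups overlap, and both are higher on slide 2, while within each slide both fasted hearts lie above both satiated hearts. The log2 fold change was 0.89 (SE 0.42, limma adjusted p = 0.176) and did not pass, but passed with the slide block (SE 0.13, limma adjusted p = 0.00279) and with the replicate block (adjusted p = 0.00691). Fdft1 also passed on slide 1 alone (0.82, limma adjusted p = 0.0366) but not on slide 2 alone (0.95, limma adjusted p = 0.121). Its second probe, well above background on 4 arrays, gave 0.29 (SE 0.73).

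Among the 5 SREBP factors and regulators, Insig2 alone passed. Insig2, an anchor that retains Scap, had signals of 6.08, 6.34, 6.70 and 6.85 in fasted hearts, against 7.77, 7.89, 8.77 and 8.80 in satiated hearts. The groups do not overlap, and it fell by 0.35 on the log2 scale (SE 0.11, limma adjusted p = 0.0498), a call also lost without any 1 heart (limma adjusted p 0.0532 to 0.138). With the mean of both Insig2 probes the value was -0.41, and the call was lost too (limma adjusted p = 0.0542). Insig1, its relative and a SREBP target, had signals of 0.315, 0.230, 0.451 and 0.166 in fasted hearts, against 0.217, 0.251, 0.134 and 0.139 in satiated hearts. These overlap, and the value of 0.60 (95% interval -0.17 to 1.38) did not pass. A second, dimmer Insig1 probe was well above background on 4 of 4 fasted and 2 of 4 satiated arrays. As only the fasted group met the filter on dim signal, the fold change of that probe is not given. Srebf1, Srebf2 and Scap gave -0.18, -0.039 and 0.11, with 95% intervals of -0.64 to 0.28, -0.38 to 0.30 and -0.28 to 0.50.

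Stard4, a cytosolic sterol carrier and SREBP target, had signals of 0.296, 0.229, 0.358 and 0.337 in fasted hearts, against 0.361, 0.468, 0.489 and 0.604 in satiated hearts. The groups do not overlap, and the log2 fold change of -0.65 (SE 0.20, limma adjusted p = 0.0534) did not pass. It passed with the slide block (limma adjusted p = 0.00949) and with the replicate block (limma adjusted p = 0.0314). Of the 8 fits that each left out 1 heart, Stard4 passed in 1, without satiated replicate 1 (limma adjusted p = 0.0382, against up to 0.133). The second kept Stard4 probe was well above background on 2 of 4 fasted and 4 of 4 satiated arrays. The satiated group alone met the filter on dim signal, so the fold change of that probe is not given.

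**Figure D2:**
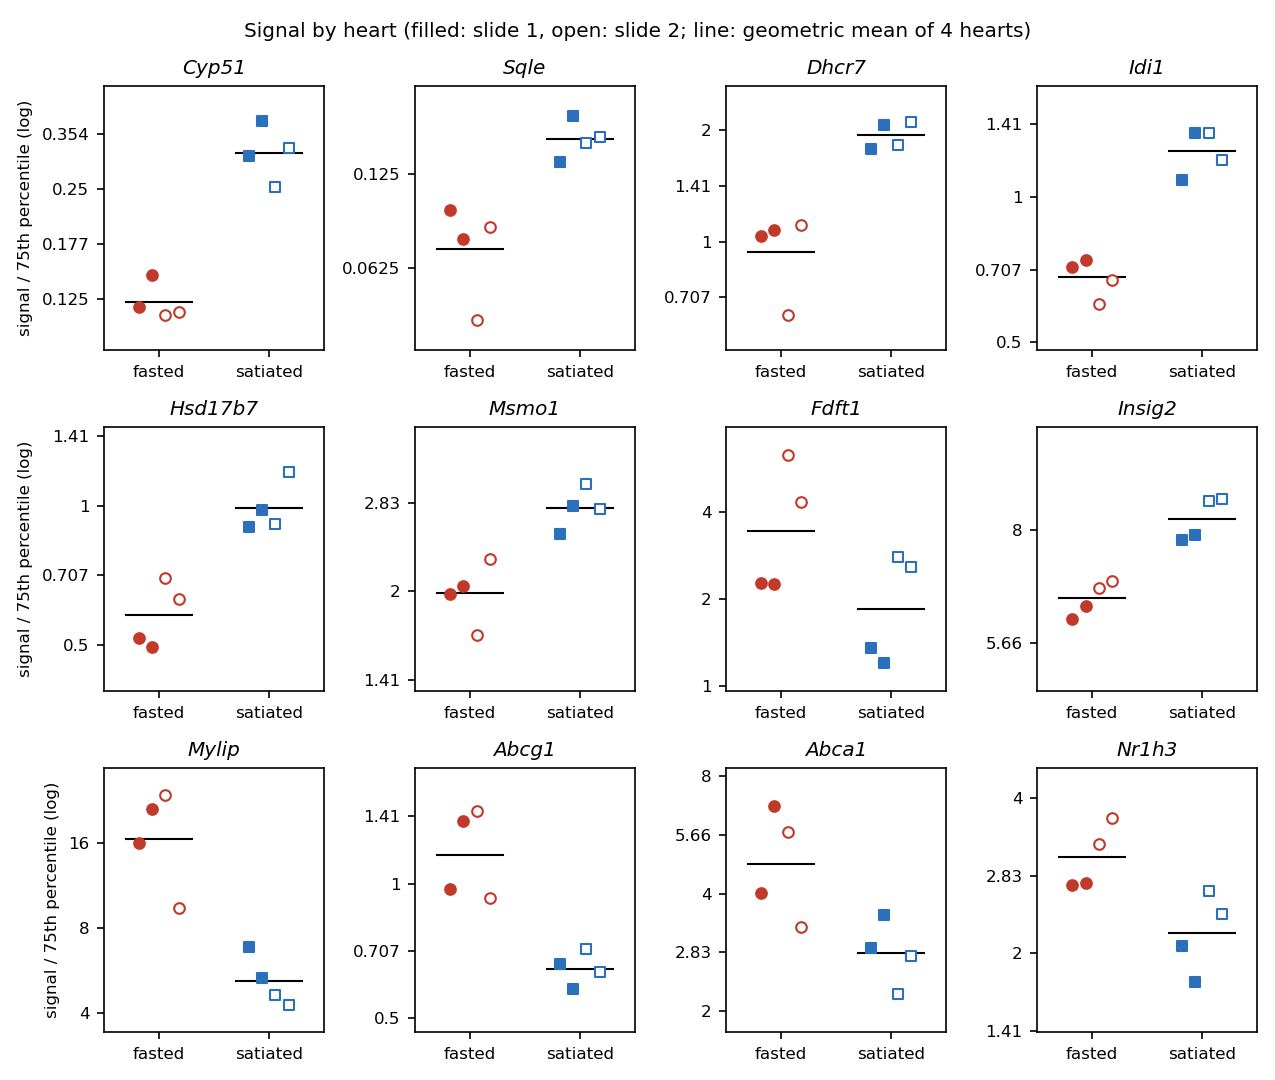
Signal of 12 genes in each heart, relative to the array's 75th percentile on a log axis, fasted left and satiated right, with filled points for slide 1, open points for slide 2 and a line at the geometric mean of the 4 hearts. Cyp51, Sqle, Dhcr7, Idi1, Hsd17b7, Msmo1 and Insig2 are lower in every fasted heart, Mylip and Abcg1 are higher in every fasted heart, and Fdft1 is separated only within slides.

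The 3 LXR targets all had positive values, with a median log2 fold change of 0.85, and 2 rose. Mylip, the ubiquitin ligase that sends the low-density lipoprotein receptor to degradation, had signals of 15.9, 21.0, 23.5 and 9.43 in fasted hearts, against 6.85, 5.33, 4.63 and 4.27 in satiated hearts. It was 3.18 times as high in fasted hearts (log2 1.67, SE 0.30, limma adjusted p = 0.00698), with no overlap. A second, dimmer Mylip probe was well above background on 4 of 4 fasted and 2 of 4 satiated arrays. The fasted group alone met the filter on dim signal, so the fold change of that probe is not given.

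Abcg1, a cholesterol exporter to high-density lipoprotein, had signals of 0.975, 1.38, 1.45 and 0.927 in fasted hearts, against 0.661, 0.579, 0.714 and 0.632 in satiated hearts. It was 1.80 times as high in fasted hearts (log2 0.85, SE 0.18, limma adjusted p = 0.0136). Abca1, which loads cholesterol onto apolipoprotein A-I, had signals of 4.02, 6.70, 5.74 and 3.29 in fasted hearts, against 2.91, 3.53, 2.21 and 2.78 in satiated hearts. Fasted replicate 4 lies below satiated replicate 2, so the groups overlap, and the value of 0.75 (SE 0.25, limma adjusted p = 0.0682) did not pass. It passed with the replicate block (limma adjusted p = 0.048) and with the slide block (limma adjusted p = 0.0408). Of the 8 fits that each left out 1 heart, Abca1 passed in 1, without fasted replicate 4 (limma adjusted p = 0.0351, against up to 0.154).

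The receptors moved less. Nr1h3, LXR alpha, had signals of 2.71, 2.74, 3.26 and 3.65 in fasted hearts, against 2.06, 1.76, 2.64 and 2.39 in satiated hearts. The groups do not overlap, and the log2 value of 0.49 (SE 0.17, limma adjusted p = 0.0763) did not pass. Nr1h3 passed with the slide block, the replicate block and normexp background correction (limma adjusted p = 0.00647, 0.0214 and 0.0164). Nr1h2, LXR beta, gave 0.16 (95% interval -0.080 to 0.40). Macrophages are rich in several of these transcripts. Of 9 macrophage markers measured, Mertk rose (0.95, limma adjusted p = 0.0125), Fcgr1 fell (-0.99, limma adjusted p = 0.049) and 7 did not pass, and the summed signal was 18.7 to 26.1 in fasted and 19.8 to 21.7 in satiated hearts. No marker was at 0, and their part in the LXR values was not tested.

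**Figure D3:**
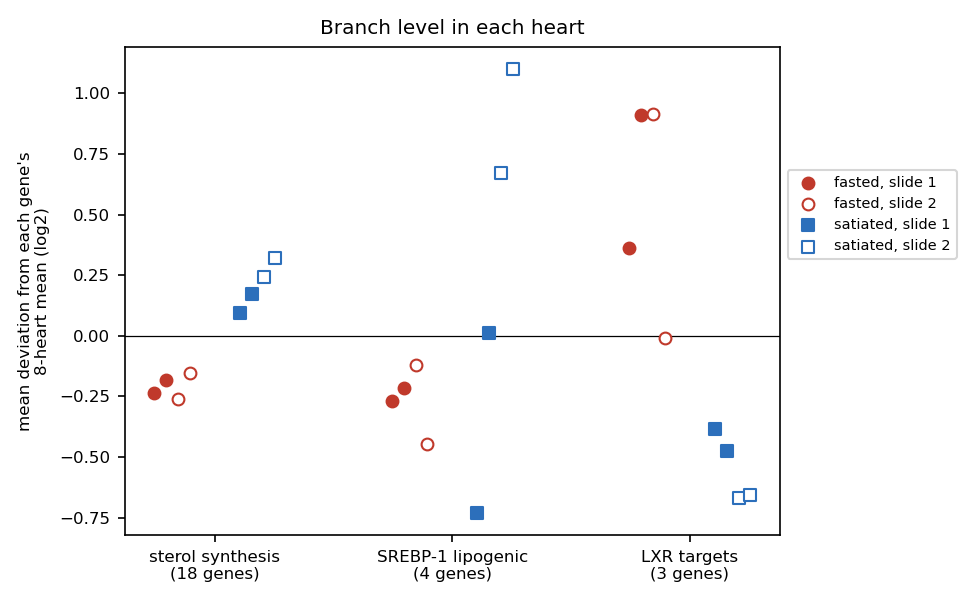
Mean log2 deviation of each branch from its genes' 8-heart means, 1 point per heart, fasted left of satiated, filled for slide 1 and open for slide 2. The enzymes lie below 0 in all 4 fasted hearts and above it in all 4 satiated hearts, the LXR targets lie below 0 in all satiated hearts and in 1 fasted heart, and the lipogenic genes spread widely in satiated hearts.

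None of the 4 lipogenic genes passed the test, and their median log2 fold change was -0.35. That median had opposite signs within the slides, 0.17 for slide 1 against -1.11 for slide 2, and came to 0.013 without satiated replicate 4. Fasn, fatty acid synthase, had signals of 14.1, 13.4, 14.5 and 11.4 in fasted hearts, against 14.1, 27.3, 59.8 and 96.5 in satiated hearts. Fasted hearts were alike, while the satiated hearts ranged widely and the lowest of them overlapped the fasted group. The log2 fold change was -1.54 (95% interval -2.76 to -0.32), which did not pass (limma adjusted p = 0.0781). It passed with the slide block (limma adjusted p = 0.0358) and without satiated replicate 1 (-2.02, limma adjusted p = 0.017), and did not pass with the replicate block (limma adjusted p = 0.0788). Leaving out 1 heart at a time moved the value between -2.02 and -1.10, the smallest without satiated replicate 4, with limma adjusted p of up to 0.17. Scd1, the delta-9 desaturase, had signals of 4.19, 3.58, 5.13 and 3.44 in fasted hearts, against 1.41, 4.44, 9.89 and 19.3 in satiated hearts. Its value was -0.55 (95% interval -2.16 to 1.07), positive on slide 1 (0.63) and negative on slide 2 (-1.72). Scd2, a related desaturase, gave 0.12, and Acly, which makes cytosolic acetyl-CoA from citrate, gave -0.15.

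Within slides, the change in Fasn was -0.51 on slide 1 and -2.56 on slide 2. A difference between slides of -2.06 (SE 0.52) had an unadjusted p of 0.00678 and an adjusted p above 0.05 in limma with an interaction term, in which 0 of 20203 genes passed and 518 had an unadjusted p under 0.05. Of the 33 genes, 27 had the same direction on both slides (81.8%), against 81.1% of all genes tested.

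**Figure D4:**
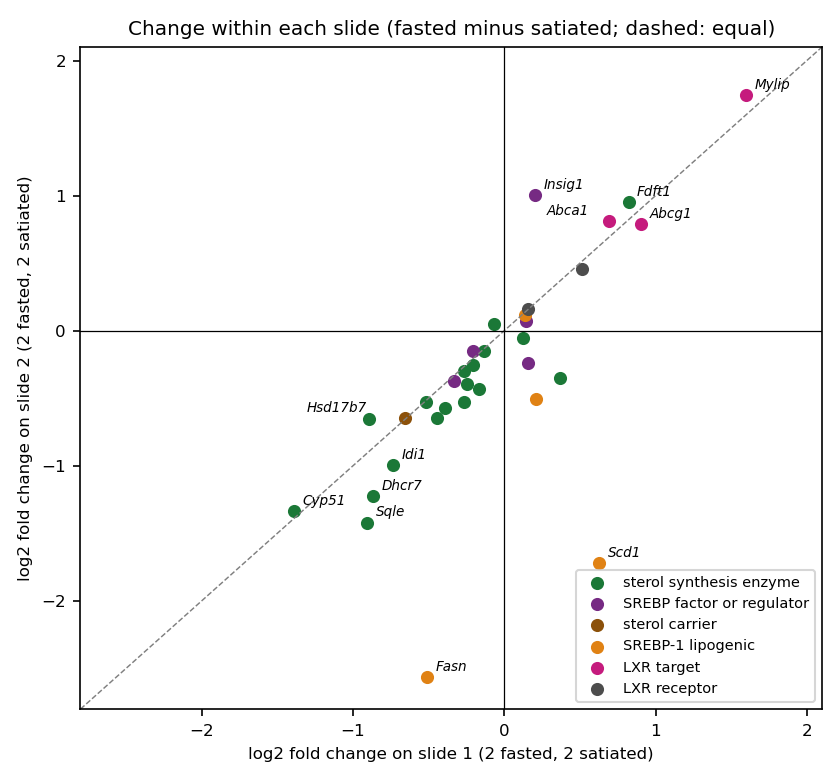
Log2 fold change, fasted minus satiated, of each of the 33 genes within slide 1 (horizontal) and within slide 2 (vertical), 2 fasted and 2 satiated hearts each, coloured by role, with equality dashed. Most enzymes and LXR targets lie near the line, and Fasn and Scd1 lie far below it.

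Adipocytes express Fasn and Scd1 at high levels, and some fat markers had a like spread over satiated hearts. Plin1, the lipid droplet coat protein, had signals of 0.687, 0.968, 0.531 and 0.599 in fasted hearts, against 0.668, 1.33, 3.40 and 4.99 in satiated hearts. Retn, resistin, had 0.165, 0.190, 0.0744 and 0.171 in fasted hearts, against 0.210, 0.237, 0.817 and 1.32 in satiated hearts. Both were highest in satiated replicates 3 and 4, where Fasn and Scd1 were highest. Of the 8 adipocyte markers tested, Car3 fell (-3.67, limma adjusted p = 0.00227), Lipe rose (0.95, limma adjusted p = 0.00807) and 6 did not pass. The list had no common direction between the groups, with 4 positive and 4 negative values and a median of 0.052. Its mean log2 deviation was -0.50, -0.12, 0.60 and 1.20 in satiated replicates 1 to 4. The 4 lipogenic genes had -0.73, 0.011, 0.67 and 1.1 in the same hearts. In fasted replicates 1 to 4 the marker list had -0.043, -0.078, -0.70 and -0.36, and the lipogenic genes had -0.27, -0.22, -0.12 and -0.45. Cidec, a lipid droplet protein, had 20.1, 12.6, 17.7 and 14.7 in fasted hearts, against 3.80, 5.42, 11.3 and 17.1 in satiated hearts (1.01, limma adjusted p = 0.15), and Cfd and Fabp4 gave 0.22 and 0.13. The summed signal of the 8 markers was 302 to 360 in fasted and 240 to 428 in satiated hearts, none was at 0, and the part of these markers in the Fasn and Scd1 values was not tested.

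**Figure D5:**
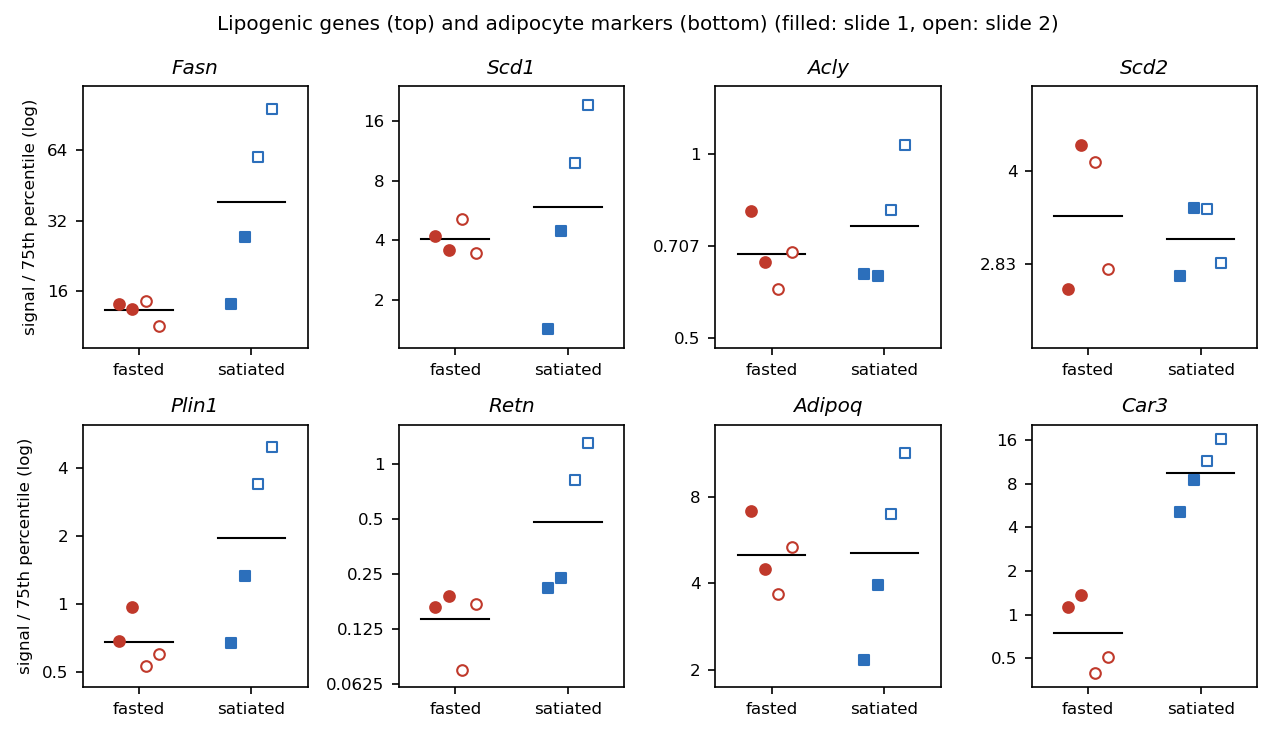
Signal of 4 lipogenic genes (top) and 4 adipocyte markers (bottom) in each heart, relative to the array's 75th percentile on a log axis, fasted left and satiated right, filled for slide 1 and open for slide 2. In satiated hearts Fasn, Scd1, Plin1, Retn and Adipoq are highest in replicate 4 and lowest in replicate 1.

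Other genes of these pathways were counted from lists that do not overlap the 33. Over all genes tested, 10.3% were called lower and 9.82% higher, to be set beside the counts of these lists and of the marker lists. Of 14 genes of later isoprenoid synthesis, sterol synthesis and uptake, 2 rose and 2 fell. Ggps1, which makes geranylgeranyl diphosphate, rose by 0.70, and Nus1, a subunit of the dolichol-making prenyltransferase, rose by 0.47 (log2, limma adjusted p = 0.00412 and 0.0337). Dhdds, the partner of Nus1, fell by 0.77 (log2, limma adjusted p = 0.00478).

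Of 11 tested genes of SREBP processing and sterol-regulated degradation, 1 rose and 2 fell: Sec24b, a coat protein of vesicles leaving the endoplasmic reticulum, by 0.59, and Erlin2 (-0.67) and Sec24d (-0.70). Of 16 other lipogenic genes, 2 rose, Acacb (0.73), the mitochondrial acetyl-CoA carboxylase, and Fads2 (0.41), the delta-6 desaturase, and none fell. Of 10 other LXR targets and partners, Lpcat3 (0.70), a phospholipid acyltransferase, and Smpdl3a (0.42) rose, and Rxrg (-1.48), a retinoid X receptor, fell. Of 9 tested genes of oxysterol and cholesteryl ester handling, Hsd3b7 (-0.54) and Lcat were called lower. Lcat was well above background on 1 of 4 fasted and 4 of 4 satiated arrays, so it entered the test through the satiated group and its fold change is not given. Medians of these 5 lists lay between -0.13 and 0.19. Their counts, and those of the fibroblast markers, stand beside 10.3% called lower and 9.82% higher over all genes tested. Of 7 fibroblast markers, 5 fell and 1 rose, with a summed signal of 240 to 289 in fasted and 247 to 282 in satiated hearts, none at 0. That sum is mostly Dcn, which rose (0.56, limma adjusted p = 0.0155), whereas the median log2 change of the list was -0.98. Its mean log2 deviation was -0.51, -0.043, -0.75 and -0.52 in fasted hearts and 0.34, 0.68, 0.31 and 0.51 in satiated hearts, so the 2 groups were separated on this list as on the enzymes. The part of fibroblast markers in the enzyme values was not tested.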

How the data were processed

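Heart samples numbered 1 to 4 in each group were measured on 1 Agilent array each. The labels name no more than separately numbered samples, so p-values reflect sample-to-sample spread, which may be technical. The authors deposited linear intensity per spot, with background subtracted by the extraction software within an array and no scaling across arrays, per the file headers. Slide 1 carries extraction version 10.5.1.1 and slide 2 version 10.7.3.1, and the submitters' processing notes name Agilent Feature Extraction 9.1. The number of arrays limits the precision.

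Of 45018 spots, 1639 controls and all outlier-flagged spots were left out. Log2 intensities of a probe's spots were averaged, and each array's 75th percentile over probe means was subtracted. This percentile was first taken over unflagged spots. It was also tried over all spots, and a linear mean of spots was tried. The version over probe means was adopted after the counts of calls under these versions had been seen, because it matched an earlier processing of these data; the choice adds the Tm7sf2 call. A probe was kept if well above background on 4 or more of 8 arrays, which held for 26480 of 41174. Names came from RefSeq transcripts of GRCm38.p6, and 26690 probes had one. The 33 genes had 52 probes, 50 of them kept, and each gene is represented by its brightest kept probe. In 14 of 15 genes with several kept probes, all had one direction.

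Groups were compared with limma 3.58.1 (lmFit, eBayes) in R 4.3.3, two-sided, with Benjamini-Hochberg adjustment at 0.05, tested on simulated data. Figures used matplotlib 3.10.9. Same-numbered hearts deviated together from their group means (r = 0.439, 0.475, 0.33 and 0.493). Different-numbered hearts of one slide did so as strongly (up to 0.522), and those of different slides had r from -0.531 to -0.283. These values do not set same-numbered hearts apart from others of their slide, and the labels name no pairs. The replicate block was therefore fitted only as an alternative, and does not show that the samples were paired. All 33 genes are named. Of each other pathway list, up to 4 called genes with the smallest p are named, except for an item that is not reported here. The 33 genes, the lists and the promoter motifs were chosen with earlier results of these data known.

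The deposited series table holds linear ratios, and was used as an alternative. After a constant per probe and per array, 99.7% of 41091 probes matched the scanner values within 0.01 (log2) on all arrays. Its column medians were 0.887, 0.860, 1.02 and 0.960 for fasted replicates 1 to 4 and 0.876, 0.901, 0.954 and 0.980 for satiated replicates 1 to 4. Its direction is that of the intensities, and the origin of the constants stays unknown. The tables hold no mean signal column, so normexp correction (offset 50) used the median signal. A planned comparison of paralog proteins was not run.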

Additional observations from a re-analysis of the deposited data

Results flagged for a closer look

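In 66 checks of 4 hearts each (33 genes, 2 groups), 3 genes had 1 heart far from the others of its group (Dixon's test at the 95% level), and chance alone marks about 1 in 20 such groups. Tm7sf2 was 0.59 in fasted replicate 4, against 0.805 to 0.833 in the other fasted hearts. Dhcr7 was 0.636 in fasted replicate 3, against 1.03 to 1.11 in the other fasted hearts. Srebf1 was 14.3 in satiated replicate 2, against 10.2 to 10.7 in the other satiated hearts.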

How the results depend on the processing

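Each of the 33 genes was refitted under 23 settings, giving 758 comparisons: 659 kept direction and side of the threshold, 46 lost a call, 29 gained one and 24 changed sign, all 24 in genes not called in either fit. Idi1, Sqle, Cyp51, Hsd17b7, Dhcr7, Abcg1 and Mylip stayed called without any 1 heart, whereas Tm7sf2 and Insig2 did not and Msmo1 stayed called in 3 of 8 such fits. With the slide as a block, 7177 genes were called in all, 13 of the 33 lower and 5 higher. With the replicate block, 6486 were called, and 5 of the 33 were higher. Without a filter on dim probes, 2225 of 32701 were called, and 5 of the 33 were lower. On slide 1 alone, 1883 of 20203 were called (993 lower and 890 higher), and 3 of the 33 (all enzymes) were lower. There 2 of the 33 were higher, Mylip and the enzyme Fdft1 (limma adjusted p = 0.0313 and 0.0366). The enzyme median on slide 1 was -0.27 and the lipogenic median 0.17. On slide 2 alone, limma called 1 gene, with 5333 at an unadjusted p under 0.05, none of the 33 either way (0 lower, 0 higher, 0 enzymes), an enzyme median of -0.48 and a lipogenic median of -1.11. Without any 1 heart, 2495 to 3690 genes were called, 5 to 8 of the 33 were lower, 5 to 6 enzymes were lower, 2 to 3 were higher, the enzyme median was -0.44 to -0.30, the lipogenic median -0.73 to 0.013 and the LXR target median 0.74 to 0.96. With the array percentile over unflagged spots or over all spots, both added after seeing the data, 4014 and 4039 genes were called, 7 of the 33 and 6 enzymes were lower. The cause of these differences was not tested, beyond the fewer hearts or added probes.

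Signs changed as follows (log2, none called). Without any 1 heart the ranges were -0.22 to 0.26 for Acat2, -0.25 to 0.035 for Lss, -0.10 to 0.052 for Ebp, -1.23 to 0.026 for Scd1, -0.0036 to 0.26 for Scd2, -0.11 to 0.061 for Srebf2 and -0.040 to 0.16 for Mvd. Acat2 was -0.018 with the percentile over probes bright on all arrays, -0.19 with array weights, -0.35 on slide 2 and below 0 without fasted replicate 4 or satiated replicate 1 or 2. Lss was 0.025 with array weights. Scap was -0.053 with array weights. Srebf2 was 0.16 on slide 1. Scd1 was 0.63 on slide 1. Acly was 0.21 on slide 1. Mvd was -0.055 and Ebp 0.051 on slide 2. Sqle could not be fitted where all 8 arrays had to be well above background.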
